A study of Mus musculus with 16 samples.

Results

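The nuclear-encoded subunits of the oxidative phosphorylation complexes were followed across 16 arrays of mouse brain cells selected with CD11b, a myeloid surface integrin, and labelled microglia. The members were all probes whose platform symbol starts with Ndufa, Ndufb, Ndufc, Ndufs, Ndufv, Uqcr, Cox4, Cox5, Cox6, Cox7, Cox8 or Atp5, or is Sdha, Sdhb, Sdhc, Sdhd or Cyc1, without the Ndufaf assembly factors. These were 100 of 25697 probes and covered 81 genes. Of them 92 probes of 75 genes were above background on at least 2 arrays and entered the tests. Complex I had 44 tested probes, complex II 5, complex III 9, complex IV 18 and complex V 16.

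The question of the series is how the level of SIRT1, an NAD-dependent deacetylase, matters to microglia with age and in dementia models. In young and old SIRT1F/F mice the Sirt1 gene is floxed (3 arrays each). Young and old LysM-Cre/SIRT1F/F mice, called LysM-Cre here, also carry a Cre recombinase driven from Lyz2, a lysozyme gene of myeloid cells (3 arrays each). The groups labelled TAU and TAU/LysM have 2 arrays each. Their labels give neither an age nor the promoter of the transgene, and for TAU/LysM no floxed allele is named. All groups share a background of BL6 and 129/Sv. Nothing in the labels states that replicates came from separate animals. The p-values therefore reflect only the spread among the arrays, part of which may be technical.

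Oxidative phosphorylation takes place in the inner mitochondrial membrane. Complex I takes electrons from NADH and complex II from succinate. Both hand them to ubiquinone, complex III passes them on to cytochrome c, and complex IV gives them to oxygen. The proton gradient built on the way drives complex V, the ATP synthase. Most subunits are encoded in the nucleus, and several subunits of complex IV exist as isoforms whose genes are used in heart and muscle, in testis or in lung. Microglia draw on oxidative phosphorylation when they survey tissue and shift toward glycolysis when activated.

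The promoters of 3 isoform pairs of complex IV are shown. In each pair a probe of the tissue isoform was called in a comparison of TAU, and its counterpart was not. The members of a pair were not tested against each other. Each sequence runs 5′ to 3′ along the strand of the gene, from 250 bases before to 50 bases after the RefSeq start (GRCm38.p6), with every CpG dinucleotide in capitals. Cox6b2 encodes the testis isoform of subunit VIb and Cox6b1 its widely expressed counterpart.
Cox6b2, chr7:4753045-4753344, minus strand: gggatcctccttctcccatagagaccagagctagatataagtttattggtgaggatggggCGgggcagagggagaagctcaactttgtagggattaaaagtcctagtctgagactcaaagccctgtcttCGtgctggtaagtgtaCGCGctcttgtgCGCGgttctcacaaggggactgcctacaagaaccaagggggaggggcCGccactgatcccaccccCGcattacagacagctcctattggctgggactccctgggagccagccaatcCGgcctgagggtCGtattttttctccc
Cox6b1, chr7:30626065-30626364, minus strand: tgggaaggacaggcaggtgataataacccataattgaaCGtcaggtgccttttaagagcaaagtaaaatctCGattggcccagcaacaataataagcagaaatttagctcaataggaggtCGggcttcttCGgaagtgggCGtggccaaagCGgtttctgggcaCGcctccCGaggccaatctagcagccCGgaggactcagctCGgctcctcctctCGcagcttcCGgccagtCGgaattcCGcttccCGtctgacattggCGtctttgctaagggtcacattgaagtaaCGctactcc
Cox7a1 encodes the heart and muscle isoform of subunit VIIa, and Cox7a2 the form of most other tissues.
Cox7a1, chr7:30183921-30184220, plus strand: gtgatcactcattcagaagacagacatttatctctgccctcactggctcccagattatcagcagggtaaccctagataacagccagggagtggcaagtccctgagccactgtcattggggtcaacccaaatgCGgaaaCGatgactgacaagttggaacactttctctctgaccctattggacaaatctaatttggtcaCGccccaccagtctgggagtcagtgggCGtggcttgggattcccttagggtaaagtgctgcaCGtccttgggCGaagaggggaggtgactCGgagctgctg
Cox7a2, chr9:79759804-79760103, minus strand: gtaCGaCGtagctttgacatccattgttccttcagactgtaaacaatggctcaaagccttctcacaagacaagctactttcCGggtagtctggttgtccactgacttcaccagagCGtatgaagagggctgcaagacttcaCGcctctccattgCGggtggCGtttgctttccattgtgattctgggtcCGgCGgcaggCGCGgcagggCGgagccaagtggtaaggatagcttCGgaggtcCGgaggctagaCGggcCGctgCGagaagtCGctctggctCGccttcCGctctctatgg
Cox8b encodes the heart and muscle isoform of subunit VIII in the mouse, and Cox8a the form of most other tissues.
Cox8b, chr7:140900397-140900696, minus strand: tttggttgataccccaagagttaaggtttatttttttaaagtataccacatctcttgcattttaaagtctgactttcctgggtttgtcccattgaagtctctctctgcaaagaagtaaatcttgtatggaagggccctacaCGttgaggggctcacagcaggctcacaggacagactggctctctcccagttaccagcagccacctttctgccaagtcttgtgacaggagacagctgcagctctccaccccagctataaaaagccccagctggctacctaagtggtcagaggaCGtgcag
Cox8a, chr19:7217567-7217866, minus strand: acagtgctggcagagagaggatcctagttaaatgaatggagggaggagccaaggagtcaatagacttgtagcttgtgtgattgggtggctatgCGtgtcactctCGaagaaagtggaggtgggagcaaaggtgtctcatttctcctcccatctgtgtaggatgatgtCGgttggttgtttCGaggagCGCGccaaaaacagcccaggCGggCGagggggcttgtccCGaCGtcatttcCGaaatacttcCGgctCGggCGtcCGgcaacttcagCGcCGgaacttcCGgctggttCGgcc
The tissue isoforms held fewer CpG dinucleotides than their counterparts in these 3 pairs. Cox6b2 had 10 against 17 in Cox6b1, Cox7a1 had 7 against 20 in Cox7a2, and Cox8b had 2 against 19 in Cox8a. The promoter of Cox8b also held TATAAA, which none of the other 5 printed here did. The matched pair not printed, Cox7b2 and Cox7b, went the other way, with 10 CpG dinucleotides in Cox7b2 against 5 in Cox7b. Cox7b2 held TATAAA and Cox7b did not.

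Most members had promoters rich in CpG. Of the 81 genes 65 matched the promoter table, with 70 promoters of 300 bases. The ratio of observed to expected CpG was over 0.6 in 57 of these 70 (81.4%), against 35.8% of all 32841 promoters in the table. Of the tissue isoforms of complex IV, 7 were members (Cox4i2, Cox6a2, Cox6b2, Cox7a1, Cox7b2, Cox8b and Cox8c). The 4 of them that matched (Cox6b2, Cox7a1, Cox7b2 and Cox8b) had 0 promoters over that ratio, against 4 of 5 of the matched counterparts.

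Motifs of factors known to act on respiratory genes were searched on both strands. TGCGCA, the core bound by NRF1, stood in 24.3% of the members' promoters and in 7.76% of all. Among promoters over the CpG ratio of 0.6 the shares were 29.8% and 16.3%. CCGGAAG, bound by GABP, stood in 22.9% of the members' promoters and in 8.86% of all, and in 22.8% and 18.7% of those over the ratio. AAGGTCA, bound by ERR receptors, stood in 7 of the members' 70 promoters against 4.72% of all, and ATGGCGG, the core bound by YY1, in 15.7% against 4.05%. Over the ratio these shares were 10.5% and 2.29%, and 19.3% and 8.99%. No motif of the 4 contains another. These matches describe letters in a window and do not show binding.

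The arrays were of similar brightness, with a median intensity of 202.9 to 283.6, and arrays of 1 group correlated at 0.984 to 0.994 over the 16344 tested probes. Microglial markers were high everywhere, with a mean list level of 12.82 to 13.33 on the log2 scale. They were lowest in TAU/LysM, at 12.82 and 12.83, against 13.02 or more on the other 14 arrays. The level of Sirt1 itself was 10.04 (young SIRT1F/F) and 10.07 (young LysM-Cre), and its average genotype difference was 0.05 ± 0.08 (SE, limma adjusted p = 0.762). Where its probe lies relative to the floxed part is not known here, so this level checks nothing about the deletion. Markers of other cells moved with TAU. The oligodendrocyte list (9 of 11 genes tested) averaged 9.69 to 10.07 on the TAU arrays and 7.58 to 8.09 on the other 14, where Mobp, Opalin and Ugt8a lay at group means from 5.11 to 6.34, near background. The choroid plexus and ependyma list (7 of 7 tested) averaged 10.93 to 11.35 on the TAU arrays and 9.14 to 10.18 elsewhere. Mural cell markers (6 of 6 tested) averaged 9.24 to 9.81 on the 4 TAU and TAU/LysM arrays and 8.24 to 9.18 on the other 12. Neutrophil markers (8 of 8 tested) were also bright and ran higher with LysM-Cre. They averaged 10.68 to 11.64 in young SIRT1F/F and 11.6 to 12.3 in young LysM-Cre. In old mice they averaged 11.27 to 11.92 and 11.91 to 12.29, and in TAU and TAU/LysM 10.45 to 11.07 and 11.25 to 11.47. Monocyte markers (3 of 6 tested) averaged 10.04 to 10.91 in TAU and 11.21 to 11.61 in TAU/LysM. The part of either list in the genotype comparisons was not tested. Fewer cells of a type and less RNA per cell cannot be told apart in such samples.

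The subunits varied little between the groups. The distance between the highest and the lowest of the 6 group means had a median of 0.25 (log2) over the 92 tested member probes, and 0.42 over all tested probes. It passed 0.5 for 13 members (14.1%), against 37.5% of all tested probes. The pooled SD between arrays of a group was also smaller, with a median of 0.106 against 0.184. Complex IV held most of the variation, with 7 of its 18 probes past 0.5 and both of the members past 1, Cox6a2 and Cox8b. In the other complexes 4 of 44, 0 of 5, 1 of 9 and 1 of 16 probes passed 0.5 (complexes I, II, III and V).

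Most of the core subunits stayed within narrow bands, while Uqcrfs1, the Rieske iron-sulfur protein of complex III, and Atp5a1 varied more. In complex I, Ndufv1, which carries the flavin that accepts electrons from NADH, had group means from 12.15 to 12.35. Ndufs7 and Ndufs8, which carry iron-sulfur clusters toward ubiquinone, ranged from 12.43 to 12.52 and from 12.36 to 12.58. Ndufs3, a core subunit of the peripheral arm, ranged from 12.05 to 12.25. Sdhb, the iron-sulfur subunit of complex II, ranged from 11.17 to 11.38 on 1 bright probe and from 11.25 to 11.51 on the other. In complex III, the core proteins Uqcrc1 and Uqcrc2 ranged from 12.05 to 12.18 and from 12.85 to 12.98, while Cyc1, the cytochrome c1 heme protein, ranged from 11.00 in young SIRT1F/F to 11.37 in TAU/LysM. Uqcrfs1 ranged from 6.23 in TAU to 6.79 in young SIRT1F/F. Cox4i1, a large regulatory subunit of complex IV, ranged from 14.21 to 14.31. Atp5b, the catalytic beta subunit of the ATP synthase, ranged from 14.37 to 14.58, and Atp5a1, its alpha partner, from 11.12 to 11.58.

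Further members of the fixed level list varied as follows, and not all of the list is given. Cox5a and Cox5b, subunits near the matrix face of complex IV, ranged from 12.67 to 12.86 and from 13.44 to 13.63. Cox6c had its lowest group mean at 11.88, in both LysM-Cre groups, and its highest at 12.41, in TAU. Cox7a2l, a factor for supercomplexes of complexes III and IV, ranged from 12.80 in young LysM-Cre to 13.29 in old SIRT1F/F. The genes of the membrane ring of the ATP synthase, Atp5g1, Atp5g2 and Atp5g3, ranged from 12.11 to 12.59, from 12.08 to 12.33 and from 13.81 to 14.06. Ndufa4, counted under complex I by its symbol and now assigned to complex IV, ranged from 13.36 to 13.59. Outside the members, the genes whose levels over the 16 arrays were most like those of Cox4i1 were Tyms, Glt28d2 and Amotl2 (Pearson r 0.780, 0.778 and 0.764). Those most like Atp5b were Ttc39a, Mns1 and Phldb1 (r 0.887, 0.861 and 0.857). These r values share arrays and normalization, and the arrays differ by group, so they are descriptions.

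**Figure D1:**
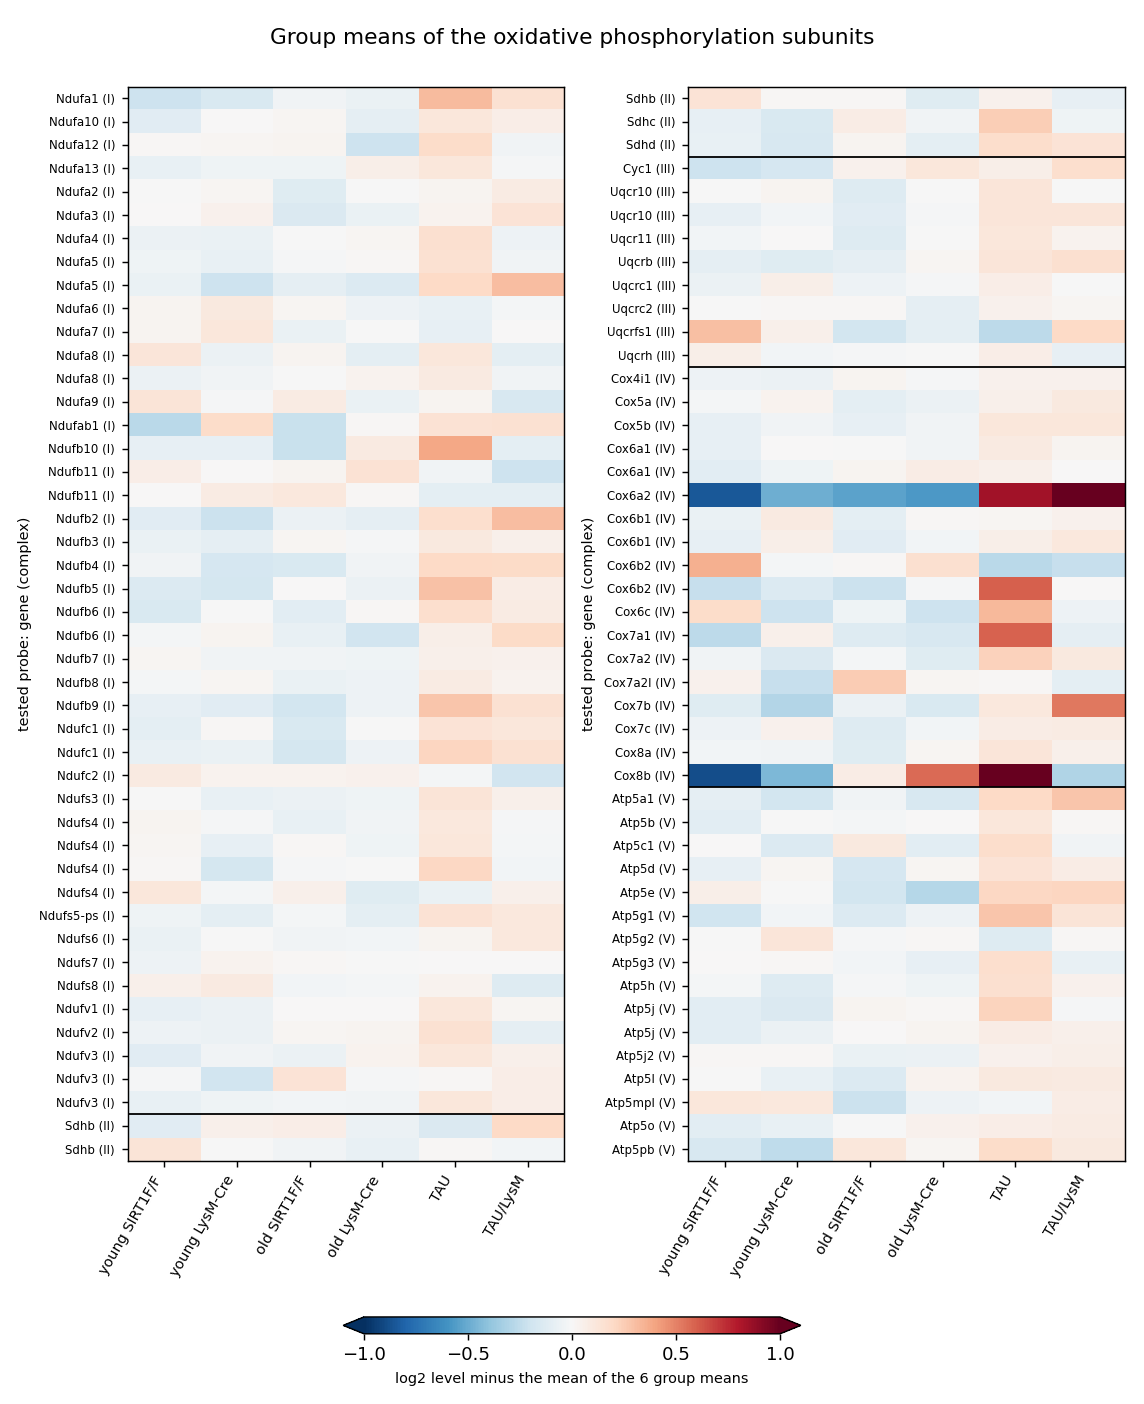
Group means of the 92 tested member probes, each minus the mean of its 6 group means (log2, colour scale from -1 to 1, with values beyond it at the end colours). Rows are probes ordered by complex and columns are the 6 groups. Most rows are pale, and Cox6a2 and Cox8b of complex IV have the strongest colours.

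Of the members 8 probes were above background on fewer than 2 arrays and were not tested. They were 1 probe each of Sdhc, Cox4i2, Atp5j, Cox7b2, Ndufs1, Uqcrq, Cox8c and Atp5k. Cox7b2 and Cox8c are testis isoforms and Cox4i2 is the isoform of lung. Sdhc and Atp5j had other probes that were tested. Sdha, Ndufa4l2 and the subunits encoded in mitochondrial DNA were not analysed here.

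LysM-Cre went with no called change of a subunit in young or old mice. In young mice 0 of 92 probes were called at a limma adjusted p under 0.05, where 0% of all tested probes were called. At an unadjusted p under 0.05 stood 1 member, against 7.94% of all probes. The 95% interval of the genotype difference lay within 1.5-fold in either direction for 85 of 92 members, against 72.9% of all probes. The member of smallest p was Ndufab1, the mitochondrial acyl carrier protein, at 0.45 ± 0.14 (SE, adjusted p = 0.613). It was detected above background on 3 of 3 young LysM-Cre arrays and on 0 of 3 from young SIRT1F/F. Its young LysM-Cre mean was 1.20-fold the lowest signal above background. The 95% interval of its difference ran from 0.14 to 0.76. Next stood Cox7a1 at 0.32, Cox6c at -0.39, Uqcrfs1 at -0.25, Ndufa8 at -0.18 and Cox6b1 at 0.14, with an adjusted p of 0.631 to 0.649.

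In old mice again 0 of 92 members were called, against 0.0184% of all tested probes, with 3 members at an unadjusted p under 0.05 (6.6% of all probes). The interval lay within 1.5-fold for 87 members (75.2% of all probes). Ndufa12, an accessory subunit of complex I, differed by -0.23 ± 0.09 and Ndufb10 by 0.31 ± 0.13 (adjusted p = 0.736 each). Atp5d, the delta subunit of the ATP synthase, differed by 0.19, Atp5mpl, a small proteolipid of its membrane part, by 0.16, Ndufa9 by -0.15 and Cox8a by 0.14. The median genotype difference over members was 0.01 in both ages.

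Between TAU/LysM and TAU no subunit was called either, against 1.48% of all tested probes, with 9 members at an unadjusted p under 0.05 (13.2% of all probes). Of the 5 members of smallest p, 4 were isoforms of complex IV. Cox7a1 differed by -0.68 ± 0.18 (adjusted p = 0.097), Cox8b by -1.29 ± 0.39 (0.142), Cox6a2 by 0.77 ± 0.25 (0.168) and Cox6b2 by -0.60 ± 0.20 (0.192). Ndufb10 of complex I stood between the latter genes at -0.49 ± 0.16 (0.181), and Uqcrfs1 followed at 0.46 (0.222). The oligodendrocyte list averaged 9.69 to 10.07 in TAU and 7.75 to 7.77 in TAU/LysM. With this list as a covariate Cox7a1 differed by -0.42 ± 0.71 (limma adjusted p = 0.96) and Cox6a2 by 0.87 ± 0.96 (0.94). With array weights and no covariate Cox7a1 was called (adjusted p = 0.0459). Without TAU/LysM 1, 2 members were called, Cox6a2 at 1.24 (adjusted p = 0.0192) and Cox7a1 at -0.91 (0.0498). That fit leaves TAU/LysM with 1 array, which is assumed to vary like the arrays of the other groups. Over all members the median was -0.05 and 31 of 92 differences were positive, against 52.3% of all tested probes. The TAU/LysM arrays lay below the TAU arrays for 28 members (30.4%, against 22.8% of all probes) and above them for 7 (7.61%, against 25.9%).

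The genotype difference in the TAU samples was also set against that in young and in old mice. The difference of the differences for Cox7a1 was -0.99 ± 0.24 against the young (adjusted p = 0.115) and -0.65 against the old. For Cox8b it was -1.73 ± 0.51 (adjusted p = 0.243) and -1.79 (0.245), and for Ndufb10 it was -0.79 ± 0.21 against the old (0.18). Limma called none of the 92 members in either test, where it called 0.306% and 0.202% of all tested probes. Averaged over the 3 settings, the genotype called 0 members against 1.22% of all probes, with 7 at an unadjusted p under 0.05 (19.9% of all probes). Cox6a2 had the smallest p at 0.36 ± 0.13 (adjusted p = 0.144), and was called without TAU/LysM 1 (0.0457). Ndufa8 at -0.17, Ndufa9 at -0.16, Ndufa12 at -0.15, Sdhc at -0.16 and Ndufab1 at 0.23 followed.

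Age went with no called subunit in either genotype. In SIRT1F/F mice 0 of 92 members were called against 1.27% of all tested probes, and in LysM-Cre mice 0 against 1.71%, with 3 and 2 members at an unadjusted p under 0.05 (14.7% and 17.4% of all probes). The 95% interval lay within 1.5-fold for 85 and 87 members (70.1% and 67.6% of all probes). The median age difference over members was 0.00 and 0.01, beside -0.03 over all tested probes in each genotype. When arrays were scaled to a common median instead, these medians became -0.12 and -0.13, beside -0.11 and -0.10 over all probes.

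Individual subunits with small p in the age comparisons were few. Uqcrfs1 lay at 6.80, 6.74 and 6.83 in young SIRT1F/F and at 6.44, 6.20 and 6.29 in old SIRT1F/F (difference -0.48 ± 0.13, adjusted p = 0.0959). The age groups did not overlap, but only 1 of the 3 old arrays was above background. Atp5mpl lay at 13.73, 13.52 and 13.59 in the young and at 13.36, 13.22 and 13.28 in the old (-0.33 ± 0.09, adjusted p = 0.104). It was called lower under 3 of the 11 alternatives. Ndufa1 at 0.17, Cyc1 at 0.25 and Atp5pb, the peripheral stalk subunit b, at 0.27 followed.

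Cox8b was the member with the largest age difference in both genotypes. It lay at 7.58, 7.40 and 7.15 in young SIRT1F/F and at 8.31, 8.20 and 8.50 in old SIRT1F/F (0.96 ± 0.32, adjusted p = 0.17). In LysM-Cre mice it lay at 8.41, 7.55 and 7.49 in the young and at 8.87, 8.09 and 9.54 in the old (1.02 ± 0.32, adjusted p = 0.135). The SIRT1F/F age groups did not overlap and those of LysM-Cre did. Without old LysM-Cre 2, Cox8b was the 1 member called higher with age in LysM-Cre mice. Choroid plexus markers averaged 9.14 to 9.68 in young and 9.50 to 9.77 in old SIRT1F/F, and 9.17 to 9.97 in young and 9.70 to 10.18 in old LysM-Cre. Endothelial markers (5 of 7 tested) separated the ages in both genotypes. They averaged 9.0 to 9.85 in young and 9.96 to 10.34 in old SIRT1F/F, and 9.27 to 9.64 in young and 10.06 to 10.19 in old LysM-Cre. The part of either list in the result was not tested. In LysM-Cre mice Ndufa12 at -0.23, Cyc1 at 0.28, Atp5e at -0.28, Ndufb6 at -0.22 and Atp5pb at 0.27 stood next, with an adjusted p of 0.192 to 0.376. The age effect did not differ by a called amount between the genotypes for any of the 92 members, nor for any other tested probe, with 0 members and 400 probes (2.45%) at an unadjusted p under 0.05. The smallest p there belonged to Ndufa12 at -0.25, Ndufa10 at -0.23, Uqcrfs1 at 0.34, Ndufb10 at 0.30, Cox7a1 at -0.35 and Atp5l at 0.25.

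The TAU and TAU/LysM samples carried the called differences, most of them in subunits of complex IV. Since the labels give TAU no age, its reference was young SIRT1F/F in 1 comparison and old SIRT1F/F in another, which share the TAU arrays. Against young SIRT1F/F 7 of 92 members were called, 6 higher and 1 lower, a share of 7.61% where 11.9% of all tested probes were called. Against old SIRT1F/F 4 were called, all higher, a share of 4.35% against 3.99%. TAU/LysM against young LysM-Cre gave 2, both higher (2.17%, against 7.27%), and against old LysM-Cre 2, both higher (2.17%, against 2.26%). The shares called were near or below those of all probes. At an unadjusted p under 0.05 stood 20, 17, 10 and 11 members in the 4 comparisons, against 27.8%, 17%, 23.8% and 15.6% of all probes.

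Cox6a2, the heart and muscle isoform of subunit VIa, rose in all 4 comparisons. On the log2 scale the young SIRT1F/F arrays read 9.81, 10.00 and 9.87 and the old ones 10.04, 10.13 and 10.42. The young LysM-Cre arrays read 10.30, 10.43 and 10.02 and the old ones 10.15, 10.42 and 9.92. It read 11.60 and 11.55 in TAU and 11.88 and 12.81 in TAU/LysM. The lowest of these 4 arrays stood 1.12 above the highest of the other 12. The differences were 1.68 ± 0.23 against young SIRT1F/F (3.21-fold, adjusted p = 0.000745) and 1.37 ± 0.23 against old SIRT1F/F (2.59-fold, 0.005). TAU/LysM was 2.10 ± 0.23 above young LysM-Cre (4.28-fold, 0.000185) and 2.19 ± 0.23 above old LysM-Cre (4.55-fold, 0.000201). Cox6a1, the widely expressed counterpart, differed by 0.15 and 0.17 on its 2 probes in TAU against young SIRT1F/F and by 0.05 and 0.03 in TAU/LysM against young LysM-Cre, with no call.

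The rise of Cox6a2 was called in TAU/LysM without any 1 of the 16 arrays and under all 11 alternatives. In TAU against old SIRT1F/F the call was lost without TAU 1 (adjusted p = 0.0608). With the oligodendrocyte list as a covariate Cox6a2 differed by 1.59 ± 0.92 in TAU against young SIRT1F/F (adjusted p = 0.905) and by 2.10 ± 0.23 in TAU/LysM against young LysM-Cre (adjusted p = 0.000444). On the TAU/LysM arrays the oligodendrocyte list read 7.75 and 7.77, inside the range of the 12 SIRT1F/F and LysM-Cre arrays, and the choroid plexus list 9.17 to 9.83. The mural cell list stood apart there, at 9.24 and 9.78 on the TAU/LysM arrays against 8.24 to 9.18 on those 12. The microglia list was lower there, at 12.82 and 12.83 against 13.04 to 13.33 on those 12. The part of either list in the result was not tested. Across all 16344 tested probes 365 (2.23%) lay higher on all 4 TAU and TAU/LysM arrays than on all the other 12. Among the members Cox6a2, Cox5b, Ndufb6 and Ndufa1 did so (4.35%), and the gaps of the latter 3 were at most 0.07.

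Of the other tested tissue isoforms, Cox8b, Cox7a1 and the brighter Cox6b2 probe were called in a comparison of TAU, and none in those of TAU/LysM. Cox8b read 9.51 and 9.0 in TAU and 8.25 and 7.67 in TAU/LysM, and rose by 1.88 ± 0.36 against young SIRT1F/F (3.68-fold, adjusted p = 0.00567). Against old SIRT1F/F it differed by 0.92 ± 0.36 (0.2), and TAU/LysM differed by 0.15 and -0.87 from young and old LysM-Cre, uncalled. Cox7a1 read 7.21, 6.97 and 7.25 in young SIRT1F/F, 7.42, 7.15 and 7.26 in old SIRT1F/F and 8.12 and 7.87 in TAU. It rose by 0.85 ± 0.17 (0.00672) and 0.72 ± 0.17 (0.0312), and both TAU arrays lay above all the others. In TAU/LysM it read 7.55 and 7.08, which overlapped both LysM-Cre groups. The test of the genotype difference among the TAU samples called neither gene.

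Cox6b2 was read by 2 probes that disagreed. The brighter probe read 7.56, 7.55 and 7.66 in young SIRT1F/F, 7.64, 7.76 and 7.42 in old SIRT1F/F and 8.70 and 8.14 in TAU. It rose by 0.83 ± 0.18 (adjusted p = 0.0119) and by 0.81 ± 0.18 (0.0254). The other, above background on 4 of 16 arrays and on 0 of 2 TAU arrays, differed by -0.63 ± 0.31 against young SIRT1F/F (0.202). In TAU/LysM the brighter probe read 8.03 and 7.61, which overlapped both LysM-Cre groups. The counterparts Cox6b1, Cox7a2 and Cox8a, whose promoters are printed with theirs, differed by 0.14, 0.27 and 0.15 in TAU against young SIRT1F/F, and none was called. For Cox6b1 the value is that of the probe of smaller p.

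Another 3 subunits that are not tissue isoforms were called in TAU. Ndufa1, a small membrane subunit of complex I encoded on the X chromosome, read 13.15, 13.07 and 12.92 in young SIRT1F/F and 13.55 and 13.58 in TAU. It rose by 0.52 ± 0.11 (adjusted p = 0.00743), and differed by 0.35 against old SIRT1F/F (0.0868). In TAU/LysM it read 13.37 and 13.44, a difference of 0.30 from young LysM-Cre (0.102). Ndufb10, an accessory subunit of the membrane arm, read 8.65, 8.95 and 8.69 in young, 8.58, 8.62 and 8.68 in old SIRT1F/F and 9.38 and 9.10 in TAU. It rose by 0.48 ± 0.15 (0.0491) and 0.61 ± 0.15 (0.0338), and TAU/LysM at 8.84 and 8.67 overlapped young LysM-Cre. The call against young SIRT1F/F was kept in 3 of the 16 fits that leave out 1 array and in 6 of the 11 alternatives. Uqcrfs1 read 5.95 and 6.51 in TAU, the first below background, and fell by 0.56 ± 0.15 from young SIRT1F/F (0.0264). It differed by -0.08 from old SIRT1F/F, where it was also dim.

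Cox7b, a small structural subunit of complex IV encoded on the X chromosome, was called in both TAU/LysM comparisons. It read 7.62, 7.53 and 7.45 in young LysM-Cre, 7.77, 7.47 and 7.79 in old LysM-Cre and 8.25 and 8.46 in TAU/LysM. It rose by 0.82 ± 0.16 (adjusted p = 0.00786) and by 0.68 ± 0.16 (0.037). In TAU it read 8.05 and 7.81, and differed by 0.23 and 0.16 from young and old SIRT1F/F. The genotype difference among the TAU samples was 0.42 (0.293), so a difference between the genotypes was not shown. Next by p in TAU/LysM against young LysM-Cre stood Ndufa5 at 0.51 (0.0542), Ndufb2 at 0.52 (0.0695), Atp5a1 at 0.46 (0.0986) and Ndufa1. Against old LysM-Cre stood Atp5e, the epsilon subunit, at 0.50 (0.133), Ndufa5 at 0.44, Ndufb6 at 0.39 and Atp5a1 at 0.43. In TAU against old SIRT1F/F the next were Ndufa1 and Ndufc1 at 0.39 (0.0905).

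Single arrays decided several of these counts. A fit without 1 of the TAU or TAU/LysM arrays leaves that group with 1 array, whose spread is taken from the other groups. Without TAU 1 the 7 calls against young SIRT1F/F became 1, Cox6a2, and the 4 against old SIRT1F/F became 0, which became 2, 2, 1 and 2 without old SIRT1F/F 1, 2 and 3 and TAU 2. Without TAU/LysM 2 the 2 calls against young LysM-Cre became 1, Cox6a2, and those against old LysM-Cre became 1 without that array, old SIRT1F/F 1 or any 1 of the 3 old LysM-Cre arrays. With the oligodendrocyte list as a covariate 0 members were called in TAU, where the SE of Cox6a2 rose from 0.23 to 0.92. That list averaged 9.69 to 10.07 on the TAU arrays and 7.58 to 8.09 on all others, so it nearly marks TAU. The fit therefore cannot separate the list from TAU, and its 0 calls are no result about the members. The part of the choroid plexus and mural cells was not tested.

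**Figure D2:**
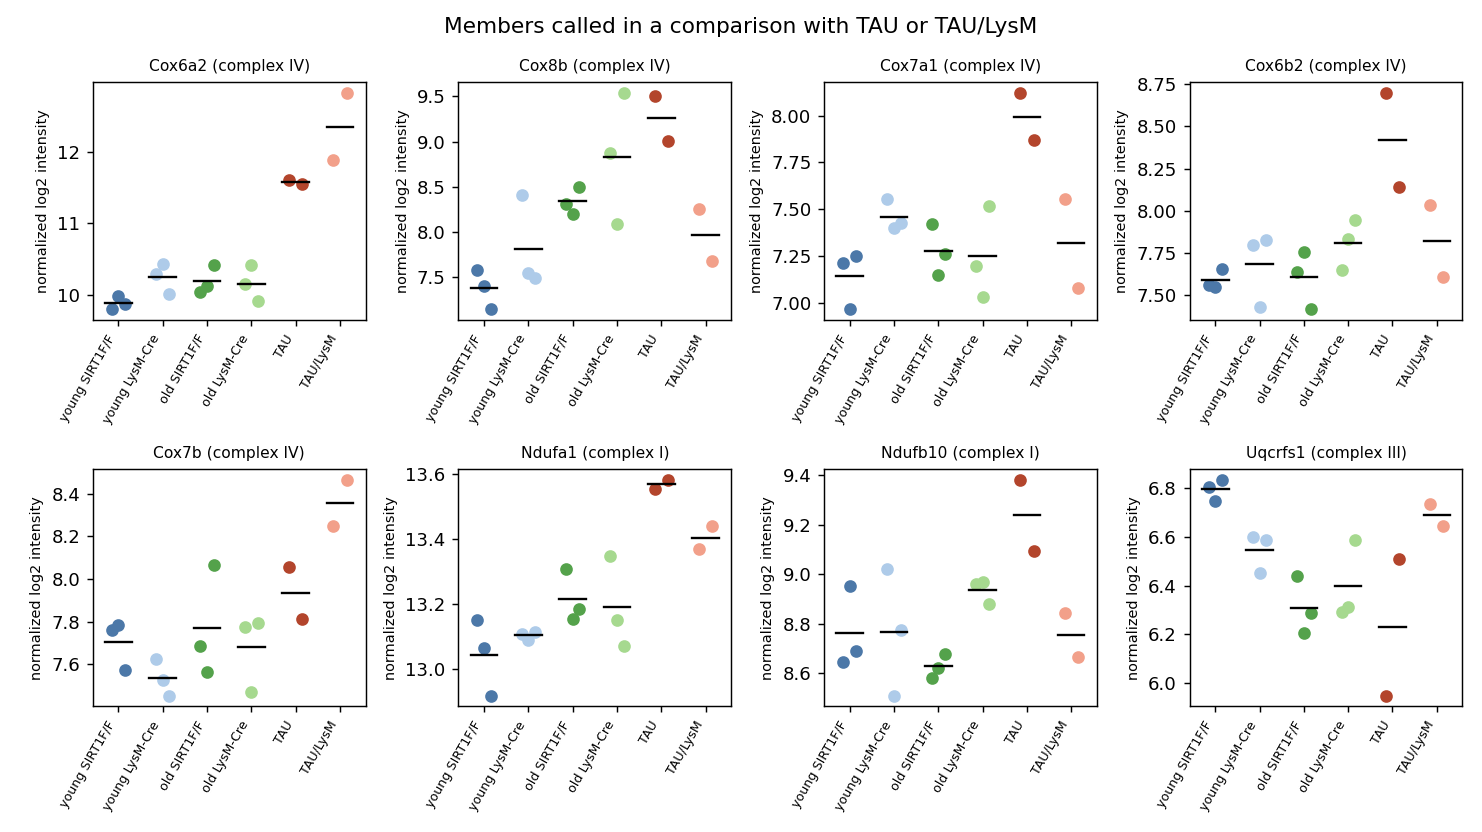
Normalized log2 intensity on each array (points) and group means (lines) of the 8 members called in a comparison with TAU or TAU/LysM. Cox6a2 lies between 11.55 and 12.81 on the 4 TAU and TAU/LysM arrays and between 9.81 and 10.43 on the other 12, while Cox8b, Cox7a1 and Cox6b2 (brighter probe) have their highest group mean in TAU.

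Beneath the called genes, small positive differences from the controls ran through most complexes in TAU. In TAU against young SIRT1F/F 75 of 92 differences were positive (81.5%, against 44% of all tested probes), with a median of 0.16 where all probes had -0.04. With arrays scaled to a common median 33 were positive, where all probes had a median of -0.16. Against old SIRT1F/F 78 were positive (84.8%, against 46.8%), with a median of 0.15 and -0.02. Under median scaling 65 were positive there, where all probes had a median of -0.05. By complex the medians against young SIRT1F/F were 0.17 (I), -0.03 (II), 0.13 (III), 0.15 (IV) and 0.17 (V), and against old SIRT1F/F 0.15, 0.04, 0.12, 0.18 and 0.17. Both TAU arrays lay above all 3 young SIRT1F/F arrays for 47 members (51.1%, against 17.8% of all probes) and above all 3 old ones for 49 (53.3%, against 17.4%). Single differences of this size were about as large as their SE, whose median was 0.11.

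In TAU/LysM the medians were smaller, and the contrast of these medians was not tested. Against young LysM-Cre 66 of 92 were positive (71.7%, against 46.9%) with a median of 0.08, and against old LysM-Cre 72 (78.3%, against 49.6%) with a median of 0.07. Under median scaling 32 and 70 were positive, where all probes had medians of -0.09 and -0.01. Both TAU/LysM arrays lay above all young LysM-Cre arrays for 25 members (27.2%, against 17.2%) and above all old ones for 23 (25%, against 16.1%). TAU against young SIRT1F/F and TAU/LysM against young LysM-Cre share no array. Over the 92 members their differences correlated at a Pearson r of 0.557, and 62 were positive in both (67.4%, against 31.9% of all tested probes). Over all tested probes r was 0.603. Against the old groups the members' r was 0.421, below the 0.454 over all tested probes. There 64 members were positive in both (69.6%, against 30.1% of all tested probes). These r values run across probes of the same arrays and are descriptions.

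The sign of the members' median depended on the scaling against the young groups and was positive under the 3 scalings against the old ones. The members' median lay above that of all probes under each of these scalings in the 4 comparisons, by an amount that varied with the scaling. With arrays scaled to a common median in place of quantile normalization, the members' median in TAU against young SIRT1F/F was -0.04, while that of all tested probes was -0.16. In TAU/LysM against young LysM-Cre it was -0.04, with -0.09 over all probes. The members' median minus that of all probes was 0.21, 0.11 and 0.19 under quantile, median and cyclic loess scaling in TAU against young SIRT1F/F. It was 0.17, 0.13 and 0.16 in TAU against old SIRT1F/F, 0.10, 0.05 and 0.11 in TAU/LysM against young LysM-Cre, and 0.07, 0.09 and 0.07 against old LysM-Cre.

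**Figure D3:**
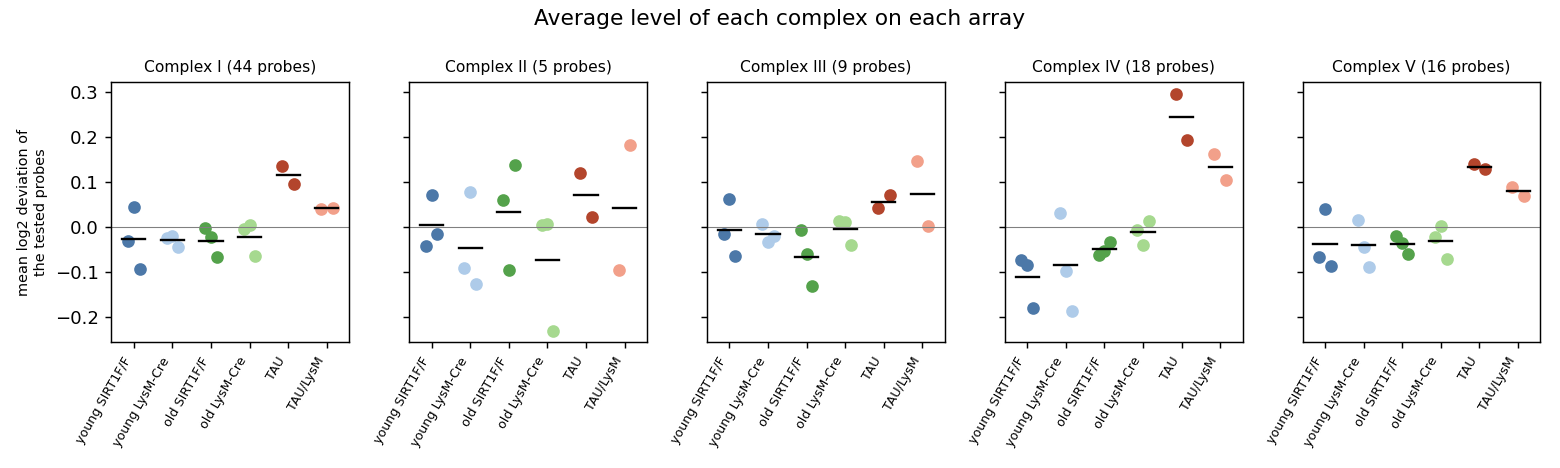
Mean deviation of each complex's tested probes from their means over all 16 arrays (log2, quantile normalized), by array (points) and group (lines). Complexes I, IV and V are highest in TAU, where complex IV reached 0.30 and 0.19, and complex II groups overlap. Under median scaling the members' median difference between TAU and young SIRT1F/F was -0.04, with -0.16 over all probes.

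**Figure D4:**
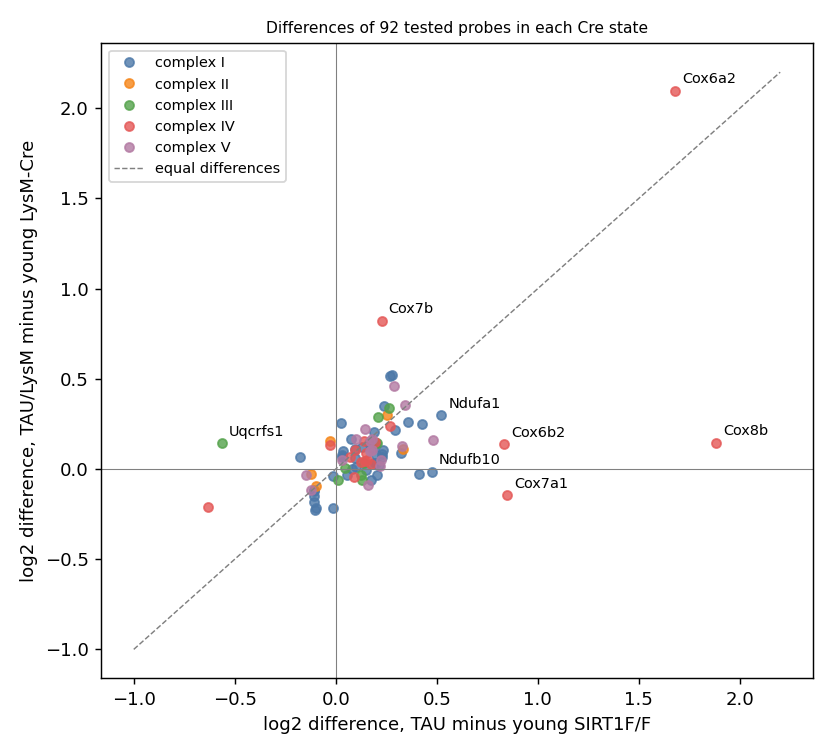
Log2 differences of the 92 tested member probes in TAU against young SIRT1F/F (horizontal) and in TAU/LysM against young LysM-Cre (vertical), coloured by complex, with called genes named. Cox6a2 is high on both axes, Cox8b, Cox7a1, Cox6b2 and Ndufb10 on the horizontal one and Cox7b on the vertical one. The zero of each axis depends on the scaling, and under median scaling the members' medians were both -0.04.

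Other mitochondrial gene groups were set beside the subunits. Of the TCA cycle, which feeds electrons to complexes I and II, 0 of 19 tested probes were called in TAU against young SIRT1F/F, where 11.9% of all tested probes were, with a median of 0.10. Mitochondrial ribosomal proteins had 1 probe higher and 1 lower of 99, with a median of 0.00, and cytosolic ribosomal proteins 0 of 73, with a median of -0.03. In TAU against old SIRT1F/F their medians were 0.08, 0.07 and 0.02. Of the assembly factors 0 of 48 probes rose and 1 fell in TAU against young SIRT1F/F, with a median of -0.05. That was Cox11, a copper chaperone of complex IV, which fell by 0.50 ± 0.10 (adjusted p = 0.00679). Cox11 also fell with age, by 0.44 ± 0.09 in SIRT1F/F mice (0.0306) and by 0.39 ± 0.09 in LysM-Cre mice (0.0414).

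Among 15 probes of regulators of respiratory genes, 1 rose and 1 fell in TAU against young SIRT1F/F, where 11.9% of all tested probes were called. Hif1a, the oxygen-regulated transcription factor subunit, rose by 1.02 ± 0.30 (adjusted p = 0.0415). Tfam, which packages and transcribes mitochondrial DNA, fell by 0.41 ± 0.12 (0.0462). Esrra, an ERR receptor of respiratory genes, differed by -0.23 (0.103) and Gabpa, a subunit of GABP, by -0.02 on 1 of its probes. In the other 3 comparisons with TAU or TAU/LysM 0 of the 15 were called, where 3.99%, 7.27% and 2.26% of all tested probes were.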

How the data were processed

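The deposited intensity values of the 16 Illumina arrays carry no background subtraction or normalization, as their ranges show. They also deposited log2 values, which equalled quantile-normalized log2 intensity to within 5e-09. The scanner software is not given in the sources used here. Intensities were corrected with normexp on all probes (offset 16), log2 transformed and then quantile normalized. The planned filter on detection p-values could not be made, so background was each array's mode with the spread below it (z over 1.645), which 54.9% to 57.5% of probes passed. The 16344 probes above it on at least 2 arrays were tested in 1 fit of 6 group means (limma 3.58.1, R 4.3.3, 10 residual and 3.68 prior degrees of freedom), with 11 contrasts, Benjamini-Hochberg adjustment over all tested probes and a threshold of 0.05. The fit was tested on simulated data with changes of 2 (log2) in either direction in TAU. Smaller changes were not simulated. The number of arrays limits the precision.

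Symbols came from the platform table, which names 23978 probes. Named were the called members, the 6 of smallest p where fewer were called, and genes from fixed lists of core and isoform subunits and of related genes. A fold over the lowest signal above background was given for Ndufab1, where the other group was below background. It is not a bound on the difference. Replicate numbers were taken to pair arrays where all of at least 3 same-numbered pairs had deviations from the group means correlated over 0.1. Young SIRT1F/F and young LysM-Cre met this (0.24 to 0.51), by the data and not the labels. Alternatives changed the background correction, scaling, filter, weights, variance model, block, probes per gene, arrays and a covariate. The members and lists were chosen with earlier results of these data known.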

Additional observations from a re-analysis of the deposited data

How the results depend on the processing

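Over 11 alternatives the counts of called members were 0 throughout for the genotype in young and old mice, for its average and for age by genotype, and for age in LysM-Cre mice. In SIRT1F/F mice age called 1, Atp5mpl lower, without background correction, with median scaling and with a trended, robust variance. Between TAU/LysM and TAU the replicate block called 1 member, Cox7a1 at an adjusted p of 0.0237, and array weights 1 (0.0459). The numbers met the pairing rule in the young genotype comparison alone, where the block also called 0 members. The same-numbered TAU and TAU/LysM arrays correlated at 0.24, over too few pairs for that rule. Of all 36 same-numbered pairs 11 correlated over 0.1, and 12 of 16 arrays correlated best with an array of their own number in another group. In a group of 2 arrays the deviations are equal and opposite, so 1 value of 0.24 between TAU and TAU/LysM enters these counts repeatedly. Deviations within any group sum to 0, so a positive r at like numbers brings negative ones at unlike numbers. These counts are descriptions. The block changed no other count by over 1.5 times.

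TAU against young SIRT1F/F gave 7 calls, and 11 without background correction or with the trended variance, and 0 with the oligodendrocyte list as a covariate. TAU against old SIRT1F/F gave 4, and 7 without background correction, 8 with array weights, 2 without the filter, 1 without the 5 arrays on which Xist or Eif2s3y was low and 0 with the covariate. These sex-linked genes were both high on the remaining arrays. Eif2s3y was low on 1 young LysM-Cre and 1 TAU/LysM array, and Xist on 1 young LysM-Cre and 2 old SIRT1F/F arrays. The part of sex in the results was not tested. Without those 5, young LysM-Cre, old SIRT1F/F and TAU/LysM have 1 array each, assumed to vary like the others. TAU/LysM against young LysM-Cre gave 2, and 4 without background correction, with array weights or with the trended variance, and 1 without those 5 arrays. Against old LysM-Cre it gave 2, and 1 with median scaling, without the filter, without those 5 arrays or with the covariate. The cause of these moves was not tested. The share of all tested probes called was not set beside the counts in these fits, nor in those that leave out 1 array. A change in a count may thus hold for all probes and not for the members alone.

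Leaving out each array in turn gave 1 to 8 calls in TAU against young SIRT1F/F, 0 to 4 against old SIRT1F/F, 1 to 3 and 1 to 2 in TAU/LysM against young and old LysM-Cre, 0 to 2 between TAU/LysM and TAU, 0 to 1 for the genotype average and 0 to 1 for age in LysM-Cre mice. Differences that changed sign were uncalled: with 1 probe per gene Ndufa8 with genotype in young mice (0.022), Ndufb6 with age in LysM-Cre mice (0.013) and Ndufa5 in TAU/LysM against old LysM-Cre (-0.052), which read another probe, and with the covariate Ndufa1 in TAU against old SIRT1F/F (-0.14).

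With 2 arrays in TAU and in TAU/LysM, shifts of the members' median size could not be called one by one. Dim probes, among them Uqcrfs1, Ndufab1 and the second Cox6b2 probe, give differences compressed by background.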
